A study of Mus musculus with 3 samples.

Results

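Immediate early genes and heat shock genes are the genes that cells switch on first after a growth factor, an injury, heat or handling, and 38 of them were followed here in inguinal fat cells of the mouse. Rows were taken by name: a row of the count files was used when its symbol was one of the 38. This gave 38 rows of 32285, 1 per member. The list of members, the further gene lists and the markers were chosen with earlier results of these data known. Barcodes with at least 2000 unique molecular identifiers (UMIs, 1 per captured RNA molecule) and at most 10% mitochondrial UMIs were used as cells. The cells were stromal vascular fraction (SVF) cells, the non-adipocyte cells of fat, depleted of CD45-positive leukocytes and of dead cells by sorting.

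The study held 3 libraries from mice of 4 weeks, all under the label batch 1, with cells of several mice pooled in each: wild-type, *Mgp*-KO (*Mgp* deleted in the whole animal) and Pd-KO (a floxed *Mgp* deleted by Cre under *Pdgfra*, the receptor gene that marks adipose progenitor cells, APCs). Fat of all 3 genotypes was digested with collagenase II at 37 °C for 30 min before sorting and sequencing. With 1 library per genotype, the spread between mice is unknown, and a difference between genotypes cannot be told apart from a difference between preparations, so no test was made between genotypes. Intervals between genotypes are 95% intervals and cover counting error only.

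Immediate early genes need no new protein for their induction: kinase cascades act on transcription factors that already sit on their promoters, and the RNA appears within minutes. Many of their products are transcription factors, such as the AP-1 proteins of the *Fos* and *Jun* families, or brakes on the response, such as the phosphatase gene *Dusp1* and the RNA decay gene *Zfp36*. Heat shock genes answer to unfolded protein through heat shock factor 1, and their products refold proteins. Both groups are known to rise while a tissue is digested with enzymes at body temperature, so that in dissociated cells their RNA adds the state of the animal to the handling of the tissue.

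Promoters of 6 members are printed with matches to motifs known for such inputs. They came from RefSeq (GRCm38.p6, 250 bases before to 50 after the start listed for the promoter), which matched 31 of the 38 members by symbol. *Egr1*, *Egr3*, *Myc*, *Ier2*, *Nfkbiz*, *Hspa8* and *Hsp90aa1* had no entry. The first set is shown because its genes had the lowest Pd-KO levels against wild-type (*Hspa1a* and *Hspa1b*, chr17:34972107-34972406, minus strand and chr17:34959189-34959488, minus strand) or because it held the one full heat shock element among the members (*Hsph1*, chr5:149636287-149636586, minus strand). Capitals mark a partial heat shock element (GAANNTTC or TTCNNGAA) in the first 2 and the full element in the last, which is the partial one followed, after 2 further bases, by another GAA or TTC in turn.
Hspa1a: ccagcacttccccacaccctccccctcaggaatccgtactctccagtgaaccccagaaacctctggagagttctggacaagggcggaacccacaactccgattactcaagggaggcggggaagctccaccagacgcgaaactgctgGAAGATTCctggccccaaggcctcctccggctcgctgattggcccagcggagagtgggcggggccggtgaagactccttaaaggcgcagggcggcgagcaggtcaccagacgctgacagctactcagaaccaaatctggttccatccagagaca
Hspa1b: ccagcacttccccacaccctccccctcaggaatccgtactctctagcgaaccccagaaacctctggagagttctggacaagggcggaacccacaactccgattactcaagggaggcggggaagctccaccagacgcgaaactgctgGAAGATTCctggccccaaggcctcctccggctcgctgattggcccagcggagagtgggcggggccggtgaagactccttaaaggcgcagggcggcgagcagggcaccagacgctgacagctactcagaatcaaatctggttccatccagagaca
Hsph1: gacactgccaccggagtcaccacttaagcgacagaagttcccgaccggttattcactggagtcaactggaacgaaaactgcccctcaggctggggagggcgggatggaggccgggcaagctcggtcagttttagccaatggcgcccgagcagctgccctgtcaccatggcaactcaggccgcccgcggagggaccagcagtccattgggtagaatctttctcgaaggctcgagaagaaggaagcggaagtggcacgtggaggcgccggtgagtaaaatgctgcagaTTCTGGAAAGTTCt

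The *Hspa1a* and *Hspa1b* windows were identical at 296 of 300 positions, and the genes lie next to each other on chromosome 17. They are near-identical copies, so reads could have been split between them or lost, and their sum is the safer measure. The partial element was held by 4 of 5 heat shock members with a promoter, by 2 of the other 26 members (*Jun* and *Egr2*) and by 15.1% of all 32851 promoters. The full element was found in *Hsph1* alone among the members and in 0.603% of all promoters.

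The second set holds an AP-1 gene, its partner and an inhibitor of NF-kB (*Fos*, chr12:85473640-85473939, plus strand; *Atf3*, chr1:191183284-191183583, minus strand; *Nfkbia*, chr12:55492598-55492897, minus strand). Capitals mark the core of the cyclic AMP response element (CRE core, TGACGT on either strand, which the full CRE TGACGTCA contains) in *Fos* and *Atf3*, and an NF-kB site (GGG, then any 2 bases, then TTTCC, on either strand) in *Nfkbia*.
Fos: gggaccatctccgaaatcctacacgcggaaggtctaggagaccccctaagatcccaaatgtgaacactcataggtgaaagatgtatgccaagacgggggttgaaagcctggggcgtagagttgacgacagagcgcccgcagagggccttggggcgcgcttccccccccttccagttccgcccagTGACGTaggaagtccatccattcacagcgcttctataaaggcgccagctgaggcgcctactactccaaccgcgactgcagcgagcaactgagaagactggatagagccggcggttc
Atf3: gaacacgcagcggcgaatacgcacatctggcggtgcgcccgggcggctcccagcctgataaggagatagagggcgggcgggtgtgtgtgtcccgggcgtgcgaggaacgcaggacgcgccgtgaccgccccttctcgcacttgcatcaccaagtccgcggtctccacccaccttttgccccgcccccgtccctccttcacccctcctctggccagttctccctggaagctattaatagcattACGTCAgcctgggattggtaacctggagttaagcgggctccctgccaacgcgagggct
Nfkbia: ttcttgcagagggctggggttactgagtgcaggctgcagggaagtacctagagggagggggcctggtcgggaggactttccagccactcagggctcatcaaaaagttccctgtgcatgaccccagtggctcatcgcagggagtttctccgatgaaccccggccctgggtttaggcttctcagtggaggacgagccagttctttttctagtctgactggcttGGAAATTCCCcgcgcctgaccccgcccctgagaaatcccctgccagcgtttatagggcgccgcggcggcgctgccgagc

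The CRE core lay in 9 of 31 member promoters (*Fos*, *Atf3*, *Maff*, *Egr2*, *Nr4a3*, *Btg1*, *Btg2*, *Dusp1* and *Ptgs2*) and in 7.51% of all promoters, and the full CRE in 3 (*Maff*, *Btg2* and *Dusp1*) against 1.79%. The AP-1 site TGANTCA was found in *Zfp36l1* only (7.81% of all promoters), the CArG box of serum response factor in *Egr2* and *Zfp36* (1.63%) and the NF-kB site in *Nfkbia* only (1.63%). The CRE core was added to the search after the *Fos* and *Atf3* windows had been read. Both strands were searched for every motif. A match is a description of these letters within 300 bases, not a binding site. The *Atf3* window lies inside the span of the gene (chr1:191170296-191218039, minus strand), away from its outer end. The *Hsph1* window is not set on the outer end of its span (149636376) either.

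The files held 184102026, 93212243 and 83942865 UMIs for wild-type, *Mgp*-KO and Pd-KO, and 10511, 12575 and 8819 barcodes passed the filters, with medians of 12802, 6445 and 8269 UMIs. Between 35 and 40 barcodes were shared by any 2 libraries. *Mgp* itself, the deleted gene, was at 502 CPM (UMIs scaled to 1000000 per library and class) in wild-type APC-like cells, 1.89 in *Mgp*-KO and 1.11 in Pd-KO cells. In endothelial-like cells it was at 711 CPM in wild-type, 0 in *Mgp*-KO and 50.7 in Pd-KO, and in mural-like cells it was kept in Pd-KO, at 375 CPM in wild-type, 0 in *Mgp*-KO and 468 in Pd-KO cells.

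Cells were gated into classes by markers that included no member. APC-like cells (*Pdgfra*, *Dcn*, *Lum*, *Dpt*, *Col3a1* and *Mfap5*) numbered 7427 in wild-type, 11066 in *Mgp*-KO and 6862 in Pd-KO. Endothelial-like cells numbered 755, 222 and 671, mural-like cells (smooth muscle and pericytes) 945, 175 and 404, and epithelial-like cells 292, 531 and 106. Among the APC-like cells, interstitial progenitor-like cells (*Dpp4*, *Pi16*) numbered 1757, 3868 and 3994, preadipocyte-like cells (*Col15a1*, *Bmper*) 2343, 1335 and 555, Areg-like cells (*F3*, *Gdf10*) 936, 797 and 556, and *Col18a1* stroma-like cells 1024, 990 and 568. The other APC-like cells, which met no subset gate, numbered 1367, 4076 and 1189. The gated mix of APC subsets therefore differed between the libraries, and values within a subset are given beside those of all APC-like cells. A subset gate needed at least 3 markers in a cell, so passing it could depend on depth. APC-like cells had medians of 14007, 6468 and 9158 UMIs in wild-type, *Mgp*-KO and Pd-KO, and the part of depth in these numbers was not tested.

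In APC-like cells the members together took 1.80% of all UMIs in the wild-type library, 2.11% in the *Mgp*-KO library and 0.755% in the Pd-KO library. *Jun*, *Fos*, *Egr1*, *Hspa8*, *Junb* and *Jund* carried 54.9%, 55.9% and 55.2% of these member UMIs, so the same 6 genes made up a like share of the signal at very different totals. Pd-KO had the lowest level for 38 of 38 members, *Mgp*-KO the highest for 29 and wild-type the highest for 9 (*Egr2*, *Egr3*, *Btg1*, *Dusp1*, *Hspa1a*, *Hspa1b*, *Hspa8*, *Hsp90aa1* and *Dnajb1*). A 3′ library yields 1 tag per molecule, so CPM were given without a length correction. Ratios of both knockouts over wild-type nonetheless varied with genomic span, as given below, so levels of different genes are only roughly comparable. For levels of at least 50 CPM the upper bound of the 95% Poisson interval lay at most 3.33% above the value.

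**Figure D1:**
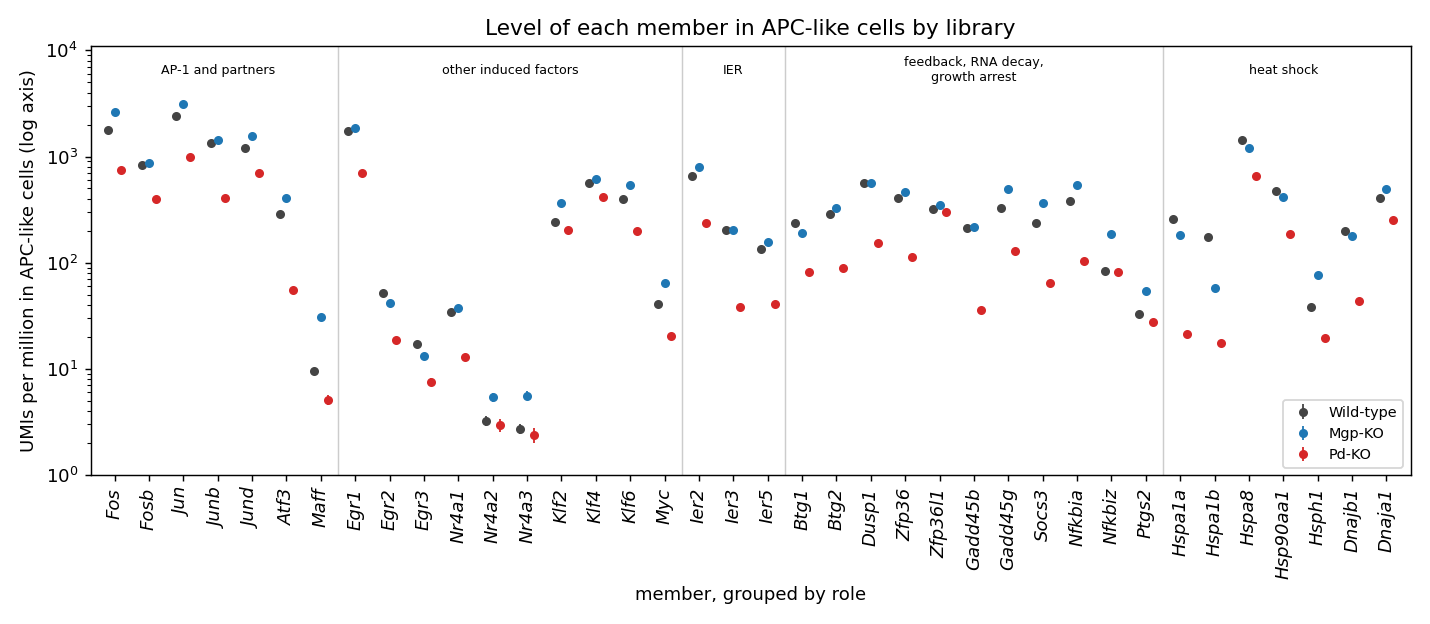
Level of each of the 38 members in APC-like cells, in CPM on a log axis, with 1 point per library and 95% Poisson intervals (mostly smaller than the points). The Pd-KO point is the lowest of the 3 for all 38 members, from 979.8 CPM for *Jun* to 2.38 CPM for *Nr4a3*.

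Ratios over wild-type are log2 ratios of CPM from which the median over the 14832 genes with at least 100 UMIs was taken off (0.17 for *Mgp*-KO and 0.21 for Pd-KO), so that 0 is the typical gene. In Pd-KO, 30 of 38 members lay at least 2-fold below the typical gene, against 8.25% of all genes, and 0 lay at least 2-fold above it, against 18.3%. The members' median was -1.55, with a range of -3.83 to -0.23. In *Mgp*-KO the members' median was 0.04: 1 member (*Hspa1b*) was at least 2-fold lower, against 4.34% of all genes, and 1 (*Maff*) at least 2-fold higher, against 16.6%. Of genes spanning up to 10 kb, which include 28 of 38 members, 5.28% were at least 2-fold higher in *Mgp*-KO and 5.81% in Pd-KO. Both comparisons use the same wild-type library, and a high or low wild-type value moves them together. Between the knockouts, the Pd-KO level was lower than the *Mgp*-KO level for all 38 members.

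**Figure D2:**
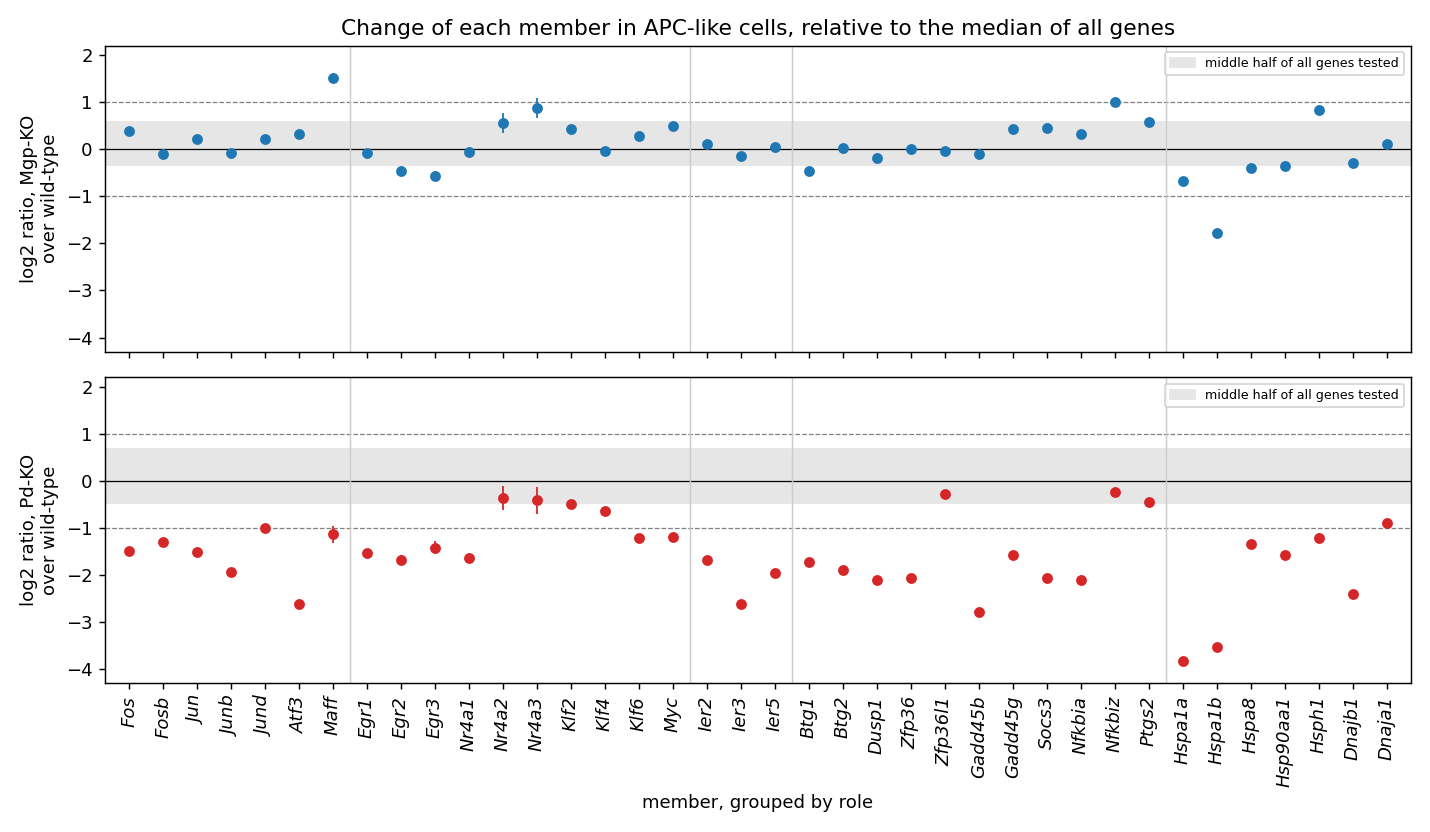
Log2 ratio over wild-type of each member in APC-like cells, less the median of all genes, for *Mgp*-KO (upper) and Pd-KO (lower). Bars are 95% counting intervals, dashed lines mark 2-fold and the gray band is the interquartile range of all genes tested. Nearly all *Mgp*-KO points lie between the dashed lines, whereas 30 of 38 Pd-KO points lie at or below the lower one.

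The AP-1 genes and their partners carried the largest share of the signal. *Fos*, whose protein pairs with *Jun* proteins, was at 1778 CPM in wild-type, 2603 in *Mgp*-KO and 739 in Pd-KO cells. *Jun* was at 2409, 3153 and 979.8 CPM, in the same order of libraries, and was the most abundant member in each. *Junb*, which often restrains *Jun*, was at 1339, 1432 and 404 CPM. All of these were within a factor of 2 between wild-type and *Mgp*-KO and at least 2-fold lower in Pd-KO, with log2 ratios of -1.48 (-1.50 to -1.47) for *Fos*, -1.51 for *Jun* and -1.94 for *Junb*. *Fosb*, a relative of *Fos*, was at 839, 876 and 398 CPM. *Jund*, the *Jun* protein of resting cells, was at 1199, 1567 and 694 CPM, the smallest Pd-KO difference of the family, at -1.004 (-1.02 to -0.99). *Atf3*, a stress-induced repressor that binds AP-1 and CRE sites, stood apart from these: it was at 290.3, 409 and 55.1 CPM, and its Pd-KO ratio of -2.61 (-2.66 to -2.56) was the lowest among the AP-1 genes. *Maff*, a small Maf protein, was rare, at 9.64, 30.9 and 5.10 CPM, and had the highest *Mgp*-KO ratio of all members, 1.51 (1.41 to 1.62).

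Among the other induced transcription factors the difference in Pd-KO was uneven, with 6 of 10 at least 2-fold lower. *Egr1*, the zinc finger factor that growth factors induce, was at 1741 CPM in wild-type, 1846 in *Mgp*-KO and 699 in Pd-KO cells. Its relatives *Egr2* and *Egr3* were at 51.4, 42.0 and 18.7 CPM and at 17.3, 13.1 and 7.50 CPM. All 3 had Pd-KO ratios from -1.68 (*Egr2*) to -1.42 (*Egr3*). *Nr4a1*, an orphan nuclear receptor, was at 34.3, 37.1 and 12.8 CPM. *Klf6*, a Krüppel-like factor, was at 396, 539.6 and 199 CPM, and *Myc*, a growth regulator, at 40.7, 64.1 and 20.6 CPM. *Klf4* and *Klf2*, which also act in resting cells, moved least among the abundant factors: *Klf4* was at 559.9, 614 and 419 CPM and *Klf2* at 244, 369 and 202 CPM, with Pd-KO ratios of -0.63 and -0.48. *Nr4a2* and *Nr4a3*, relatives of *Nr4a1*, stayed between 2.38 and 5.60 CPM in every library.

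The immediate early response genes *Ier2*, *Ier3* and *Ier5* were all at least 2-fold lower in Pd-KO. *Ier2*, a nuclear protein, was at 659, 801 and 237 CPM. *Ier3*, which acts on cell survival under stress, was at 201.5, 205 and 38.1 CPM, and *Ier5*, which assists heat shock factor 1, at 136, 157 and 40.6 CPM. Wild-type and *Mgp*-KO differed by at most 0.14 on the log2 scale for these genes (*Ier3*, -0.14), while the Pd-KO ratio of *Ier3* was -2.62 (-2.68 to -2.56).

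Most genes grouped here under feedback, RNA decay and growth arrest were at least 2-fold lower in Pd-KO too, 8 of 11. *Dusp1*, a phosphatase that switches off MAP kinases, was at 569 CPM in wild-type, 564 in *Mgp*-KO and 153 in Pd-KO cells. *Zfp36*, whose protein speeds the decay of cytokine RNA, was at 405, 459.7 and 113 CPM, and *Socs3*, an inhibitor of JAK-STAT signalling, at 236, 364 and 65.1 CPM. *Nfkbia*, which encodes the NF-kB inhibitor IkBa, was at 382, 539 and 103 CPM. The Pd-KO ratios of these were -2.11, -2.05, -2.07 and -2.10, close to each other. *Gadd45b*, a growth arrest and stress protein, was lower still: it was at 210.3, 219 and 35.5 CPM, a Pd-KO ratio of -2.78 (-2.84 to -2.72). Its relative *Gadd45g* was at 328, 498 and 128 CPM. The antiproliferative genes *Btg1* and *Btg2* were at 236, 192 and 82.6 CPM and at 288, 329 and 89.5 CPM. The remaining genes of this role had the smallest Pd-KO differences. *Zfp36l1*, a paralog of *Zfp36*, was at 318, 349 and 303 CPM, *Nfkbiz*, an atypical nuclear IkB protein, at 83.5, 187 and 82.6 CPM, and *Ptgs2*, the inducible cyclooxygenase, at 32.6, 54.7 and 27.6 CPM. Their Pd-KO ratios were -0.28, -0.23 and -0.45. The sign of the ratio turned for *Zfp36l1*, *Nfkbiz* and *Nr4a2* under at least 1 other way of processing. *Nfkbiz* lay just under the 2-fold line in *Mgp*-KO, at 1.00 (0.96 to 1.04).

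The heat shock chaperones differed widely in the size of their Pd-KO ratios. *Hspa1a* and *Hspa1b*, the inducible HSP70 genes, were at 260.1 CPM in wild-type, 182 in *Mgp*-KO and 21.2 in Pd-KO cells for *Hspa1a*, and at 175, 57.5 and 17.5 CPM for *Hspa1b*. The sum of both was 435, 239 and 38.7 CPM. Their Pd-KO ratios, -3.83 (-3.91 to -3.76) and -3.53 (-3.62 to -3.45), were the lowest of all members, 14.3-fold and 11.6-fold below the typical gene, and both were also below wild-type in *Mgp*-KO (-0.68 and -1.77). *Dnajb1*, the HSP40 partner of HSP70, was at 197, 180.2 and 43.2 CPM, with a Pd-KO ratio of -2.41 (-2.46 to -2.35). *Hspa8*, the HSP70 of unstressed cells, was at 1419, 1204 and 650.2 CPM, and *Hsp90aa1*, the inducible HSP90, at 477, 418 and 186 CPM. *Dnaja1*, another HSP40, was at 406, 491 and 254 CPM and had the smallest Pd-KO difference of the chaperones, -0.89. *Hsph1*, an HSP110 nucleotide exchange factor, was at 38.5, 76.7 and 19.3 CPM, and was the one chaperone with a *Mgp*-KO ratio above 0.11, at 0.83 (0.77 to 0.89). It spans 22.1 kb, and ratios varied with span, as given below.

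Thinning each cell to 2000 UMIs gave the share of cells with at least 1 UMI at equal depth. A *Fos* UMI was found in 78.3% (77.3 to 79.2), 86.8% (86.2 to 87.4) and 55.2% (54.0 to 56.4) of wild-type, *Mgp*-KO and Pd-KO APC-like cells (exact binomial intervals), against 96.5%, 95.1% and 80.8% without thinning. For *Atf3* the shares were 27.0% (26.0 to 28.0), 39.8% (38.9 to 40.8) and 8.31% (7.66 to 8.98), against 59.9%, 63.5% and 26.0% without thinning, and for *Hspa1a* 29.5% (28.4 to 30.5), 21.3% (20.5 to 22.0) and 4.11% (3.65 to 4.61), against 65.7%, 38.6% and 14.3%. Each of the 3 genes thus had its lowest share in Pd-KO at either depth. No class here lacks the members, so the background from free RNA was read from barcodes of 10 to 100 UMIs: their members' sum was 24374, 22684 and 7655 CPM, of which *Fos* made up 3675, 2626 and 841 CPM. Free RNA was thus low in members in the same library as the cells, and its part in the shares was not tested.

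Per cell, the sum of the 31 immediate early members (all but the chaperones) after thinning had medians of 24, 32 and 10 UMIs in wild-type, *Mgp*-KO and Pd-KO APC-like cells, and the sum of the 7 chaperones medians of 5, 5 and 2. The interquartile range of wild-type cells ran from 13 to 42 immediate early UMIs and that of Pd-KO cells from 6 to 16, so the cells of the libraries overlapped. Cells without any member UMI were rare: 1 of 7427, 2 of 11066 and 21 of 6862.

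The response was not spread evenly over the APC-like cells. Preadipocyte-like cells had medians of 39, 61 and 25 immediate early UMIs and interstitial progenitor-like cells 11, 21 and 8, with Areg-like cells at 21, 38 and 12 and *Col18a1* stroma-like cells at 26, 33 and 17. Interstitial progenitor-like cells had the lowest and preadipocyte-like cells the highest median of the 4 subsets in all 3 libraries, while Areg-like and *Col18a1* stroma-like cells changed places in *Mgp*-KO. As summed CPM, the members were at 9514, 14059.6 and 5722 in interstitial progenitor-like cells and at 24046, 33796 and 15255 in preadipocyte-like cells. *Fos* was at 643, 1646 and 404 CPM in the former and at 2478, 4151 and 2068 CPM in the latter.

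**Figure D3:**
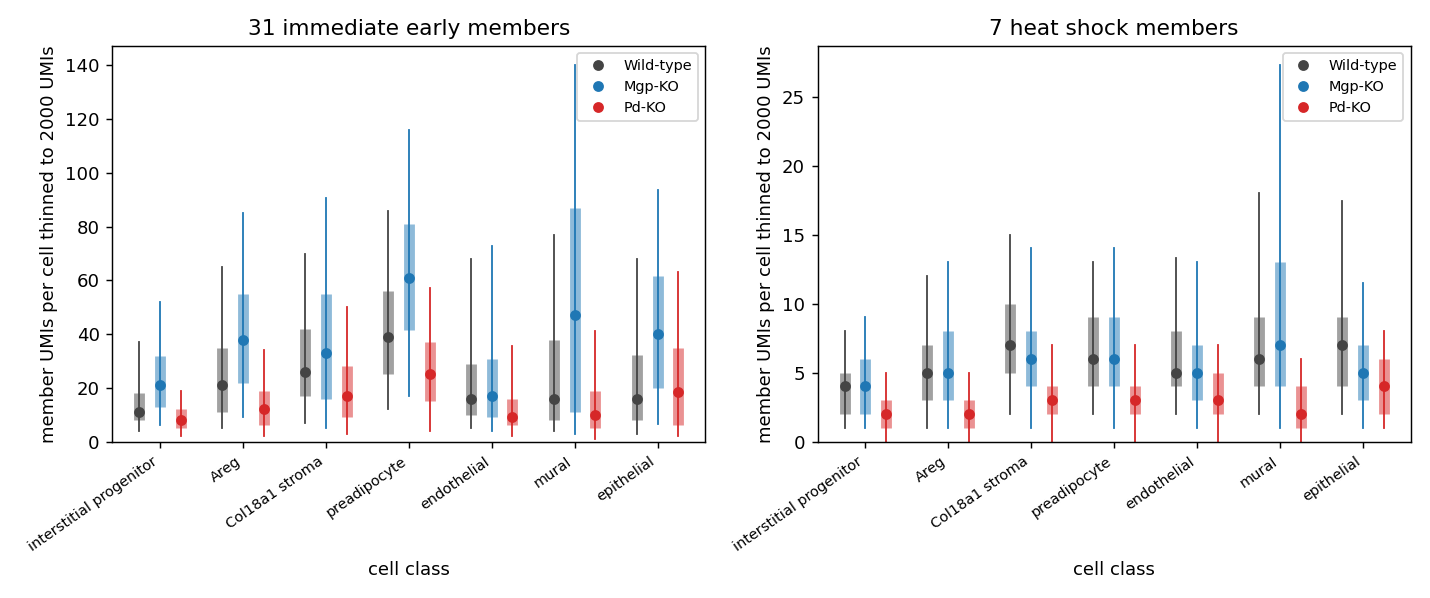
Member UMIs per cell after every cell was thinned to 2000 UMIs, by cell class and library, for the 31 immediate early members (left) and the 7 heat shock members (right). Points are medians over cells, thick bars the interquartile range and thin lines the range from percentile 5 to 95. Preadipocyte-like cells have the highest immediate early median of the APC subsets in each library (39, 61 and 25 UMIs), and Pd-KO cells have the lowest heat shock median in every class shown.

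Gene by gene, 17 of 38 members were at least 2-fold higher in preadipocyte-like than in interstitial progenitor-like cells in every library (relative to the median of all genes), against 5.69% of all genes, and 1 was at least 2-fold lower, against 5.53%. The 17 included *Fos*, *Fosb*, *Jun*, *Junb*, *Egr1*, *Egr2*, *Egr3*, *Zfp36*, *Gadd45b*, *Btg1*, *Btg2* and *Dnajb1*. *Gadd45b*, for instance, had log2 differences of 2.36, 2.18 and 3.21 in wild-type, *Mgp*-KO and Pd-KO, and *Egr2* of 2.65, 3.03 and 3.67. The member that was lower was *Ptgs2*, at -1.52, -1.45 and -2.59: it was at 60.4, 79.1 and 36.1 CPM in interstitial progenitor-like cells and at 21.8, 29.9 and 6.43 CPM in preadipocyte-like cells. *Klf2* was also lower in all 3, by less (-0.32, -0.19 and -1.39). *Jund*, *Klf4*, *Zfp36l1*, *Hspa8* and *Dnaja1* differed by less than 1 on this scale in each library.

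The other subsets had patterns of their own. In Areg-like cells 12 members were at least 2-fold higher than in interstitial progenitor-like cells in every library (background 5.63%) and 2, *Klf2* and *Ptgs2*, at least 2-fold lower (background 5.06%). These cells had the nuclear receptors among the differences: *Nr4a1* at 2.16, 2.46 and 2.88, *Nr4a2* at 1.85, 1.98 and 1.76 and *Nr4a3* at 2.50, 2.08 and 2.28. *Nr4a1* was higher in preadipocyte-like cells too, at 32.7, 44.3 and 26.6 CPM in wild-type, *Mgp*-KO and Pd-KO. In interstitial progenitor-like cells it was at 13.4, 16.5 and 5.18 CPM. In *Col18a1* stroma-like cells 9 members were higher (background 7.24%) and 2, *Gadd45g* and *Ptgs2*, lower (background 7.81%). The largest differences there were those of *Egr2*, at 3.76, 3.77 and 4.65, and *Egr3*, at 3.21, 3.71 and 4.76, factors known for Schwann cell and neuronal programs. *Hspa1a* and *Hspa1b* were at least 2-fold higher in both subsets.

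Within each subset the Pd-KO levels again lay mostly below the wild-type levels, but by less than over all APC-like cells. The members' median ratio was -1.15 in interstitial progenitor-like, -1.04 in preadipocyte-like, -1.16 in Areg-like and -1.04 in *Col18a1* stroma-like cells, where 20, 20, 27 and 19 of 38 members were at least 2-fold lower, against 4.01%, 5.56%, 2.76% and 6.07% of all genes. In the APC-like cells that met no subset gate the median was -1.19, with 25 members at least 2-fold lower, against 546 of 11924 genes. For *Fos* the ratio moved from -1.48 over all APC-like cells to -0.86 in interstitial progenitor-like and -0.54 in preadipocyte-like cells. *Hspa1a* kept ratios of -3.04 and -3.40, and *Ier3* of -1.85 and -2.55. With each APC subset given equal weight, the median over members was -1.06 and 22 members were at least 2-fold lower, against 5.65% of all genes.

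The *Mgp*-KO ratios also lay higher within most subsets than over all APC-like cells. Interstitial progenitor-like cells of *Mgp*-KO had a members' median of 0.37 over wild-type with 7 members at least 2-fold higher, against 13.2% of all genes, a share near that of the members. *Fos* was at 1.20 (1.17 to 1.22), *Atf3* at 1.04 (0.98 to 1.10) and *Socs3* at 1.15 (1.08 to 1.22) in these cells, while *Hspa1b* was at -1.25 (-1.37 to -1.12). Preadipocyte-like cells had a median of 0.34, Areg-like cells 0.34 and *Col18a1* stroma-like cells -0.01. In the APC-like cells that met no subset gate it was 0.24. In preadipocyte-like, Areg-like and *Col18a1* stroma-like cells 3 members each were at least 2-fold higher, against 14.6%, 10.3% and 14.5% of all genes. Such shares take in long genes, while 28 of 38 members span up to 10 kb. Over all APC-like cells, 5.28% of genes up to 10 kb and 38.5% of genes over 50 kb were at least 2-fold higher in *Mgp*-KO. Shares by span were not taken within subsets. The members at least 2-fold higher in each of the 4 subsets were these: *Maff*, with ratios of 2.03, 1.97, 1.29 and 1.74, and *Nfkbiz*, with 1.27, 1.20, 1.33 and 1.16. They span 12.5 and 27.5 kb, against a median of 5.21 kb over the members, and *Mgp*-KO ratios rose with span, as given below. Genes of 10 to 50 kb, however, had a median of -0.06 in *Mgp*-KO over all APC-like cells, and 9.77% of them were at least 2-fold higher. The part of span in these 2 ratios was not tested. *Hspa1b* alone was at least 2-fold lower, in each of the 4 subsets, against 2.2%, 3.39%, 1.79% and 2.11% of all genes in the order named. The sum of *Hspa1a* and *Hspa1b*, the safer measure, differed by less in some subsets. In wild-type and *Mgp*-KO it was at 167 and 144 CPM in interstitial progenitor-like and 403 and 216 CPM in preadipocyte-like cells. Areg-like cells had 603 and 519 CPM and *Col18a1* stroma-like cells 727 and 406 CPM.

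**Figure D4:**
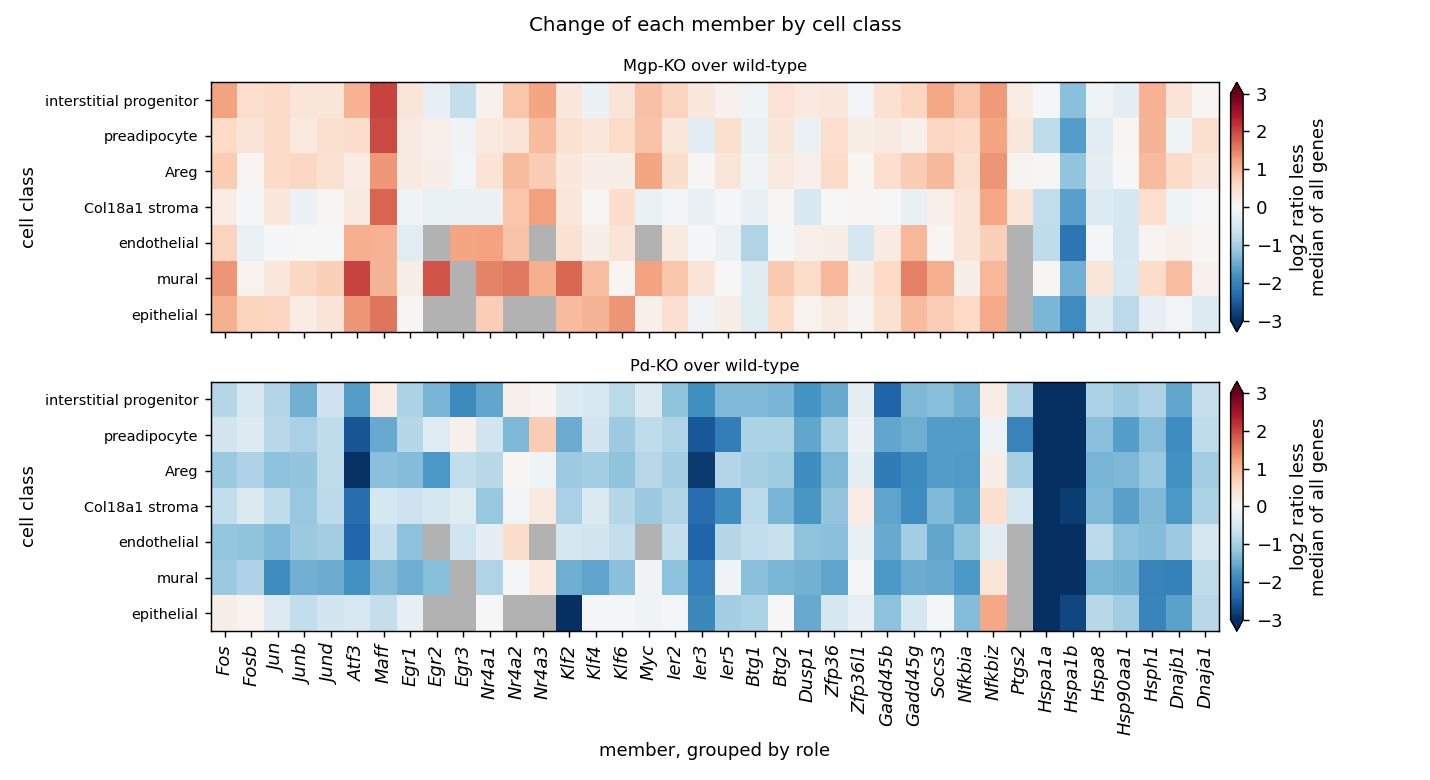
Log2 ratio over wild-type of each member by cell class, less the median of all genes of that class, for *Mgp*-KO (upper) and Pd-KO (lower). Color runs from 3 below (blue) to 3 above (red), values beyond are drawn at the end of the scale, and gray marks members with under 100 UMIs. *Hspa1a* and *Hspa1b* are dark blue in all Pd-KO rows, and the epithelial row of Pd-KO is the palest.

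The classes outside the APCs held the same genes at other levels. In endothelial-like cells the members summed to 13832, 15881 and 7681 CPM in wild-type, *Mgp*-KO and Pd-KO, in mural-like cells to 17002, 28512 and 7625 and in epithelial-like cells to 16399, 24412 and 13889. Differences between classes were tested on UMI sums per library and class, with the libraries as 3 replicates of the class difference (edgeR's quasi-likelihood test, library as a block, Benjamini-Hochberg over 14767 genes).

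Endothelial-like cells had 4 members higher and 16 lower than APC-like cells by edgeR, against 21.9% and 27.4% of all genes. The nuclear receptor gene *Nr4a2* rose most, to 21.3, 41.3 and 34.7 CPM in the 3 libraries (edgeR, log2 difference 2.78, adjusted p = 3.02e-06). *Ier3* was at 603, 625 and 129 CPM (edgeR, log2 difference 1.34, adjusted p = 1.57e-05) and *Nr4a1* at 58.0, 146 and 53.3 CPM (edgeR, log2 difference 1.24, adjusted p = 0.00492). *Nfkbia*, the fourth, was at 647, 911 and 316 CPM (edgeR, log2 difference 0.73, adjusted p = 0.00285) and missed the threshold with a minimum of 5000 UMIs per cell. *Klf2*, the flow-responsive factor of endothelium, was at 688, 1024 and 539 CPM and higher than in APC-like cells in 3 of 3 libraries, yet was not called (edgeR, log2 difference 1.13, adjusted p = 0.0752). Those that fell most were *Ptgs2* (edgeR, log2 difference -4.96, adjusted p = 1.02e-05), *Egr2* (edgeR, log2 difference -2.58, adjusted p = 4.93e-04), *Myc* (edgeR, log2 difference -2.26, adjusted p = 1.00e-04), *Fosb* (edgeR, log2 difference -2.03, adjusted p = 1.32e-05) and *Egr1* (edgeR, log2 difference -1.76, adjusted p = 7.39e-05), each lower in 3 of 3 libraries. Of these, *Egr2* and *Myc* rest on few UMIs of endothelial-like cells. In wild-type, *Mgp*-KO and Pd-KO these were 65, 5 and 9 for *Egr2* and 55, 6 and 27 for *Myc*. The few UMIs of *Ptgs2* are given below.

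Mural-like cells had 7 members higher and 10 lower by edgeR, both near the shares of all genes (background 18.5% and 22.9%). All 3 nuclear receptor genes rose: *Nr4a1* to 191, 589 and 119.6 CPM (edgeR, log2 difference 2.87, adjusted p = 2.65e-05), *Nr4a2* to 20.4, 66.6 and 23.4 CPM (edgeR, log2 difference 2.72, adjusted p = 6.49e-06) and *Nr4a3* to 13.9, 31.8 and 20.0 CPM (edgeR, log2 difference 2.26, adjusted p = 1.18e-04). *Hspa1a*, at 758, 872 and 59.5 CPM, was higher too (edgeR, log2 difference 1.47, adjusted p = 0.00146), as was *Gadd45b* (edgeR, log2 difference 0.95, adjusted p = 0.00408), which missed the threshold without the *Mgp*-KO library or with a minimum of 5000 UMIs. *Ptgs2* (edgeR, log2 difference -3.45, adjusted p = 6.83e-05) and *Klf4* (edgeR, log2 difference -2.80, adjusted p = 4.11e-05) were lower in 3 of 3 libraries. *Egr2* (edgeR, log2 difference -1.45, adjusted p = 0.0154), *Ier2* (edgeR, log2 difference -0.83, adjusted p = 0.0246) and *Egr1* (edgeR, log2 difference -0.78, adjusted p = 0.0146) were lower as well (*Egr2* in 2 of 3 libraries, the others in 3 of 3), but each lost its call without the wild-type library, *Egr2* also without Pd-KO and by DESeq2, and *Ier2* and *Egr1* also without *Mgp*-KO. *Egr1* lost it under the stricter gate too, which left 4 members lower.

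Epithelial-like cells had 9 members higher, near the share of all genes, and 17 lower by edgeR (background 28.1% and 32.7%). *Atf3* stood out, at 879, 2444 and 770.3 CPM against 290.3, 409 and 55.1 CPM in APC-like cells (edgeR, log2 difference 2.46, adjusted p = 2.56e-04). *Hspa1b* (edgeR, log2 difference 1.23, adjusted p = 0.0103), *Hspa1a* (edgeR, log2 difference 1.05, adjusted p = 0.00687), *Socs3* (edgeR, log2 difference 1.17, adjusted p = 0.00985) and *Btg2* (edgeR, log2 difference 1.15, adjusted p = 0.00768) were higher in 3 of 3 libraries. Of these, *Socs3* missed the threshold without the Pd-KO library and *Hspa1a* without the wild-type library. *Egr2* (edgeR, log2 difference -3.58, adjusted p = 5.39e-05), *Ptgs2* (edgeR, log2 difference -3.49, adjusted p = 1.96e-05), *Klf4* (edgeR, log2 difference -2.80, adjusted p = 1.91e-05), *Nr4a3* (edgeR, log2 difference -2.65, adjusted p = 5.38e-04) and *Egr3* (edgeR, log2 difference -2.65, adjusted p = 2.68e-04) were lower in 3 of 3. All of these but *Klf4* rest on few UMIs of epithelial-like cells. In wild-type, *Mgp*-KO and Pd-KO these were 36, 21 and 1 for *Egr2*, and 25, 26 and 4 for *Ptgs2*. *Nr4a3* had 4, 3 and 1 and *Egr3* 18, 15 and 2. *Ptgs2* was lower than in APC-like cells in all 3 classes and all 3 libraries, with 11, 0 and 3 UMIs in endothelial-like and 43, 1 and 1 in mural-like cells.

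**Figure D5:**
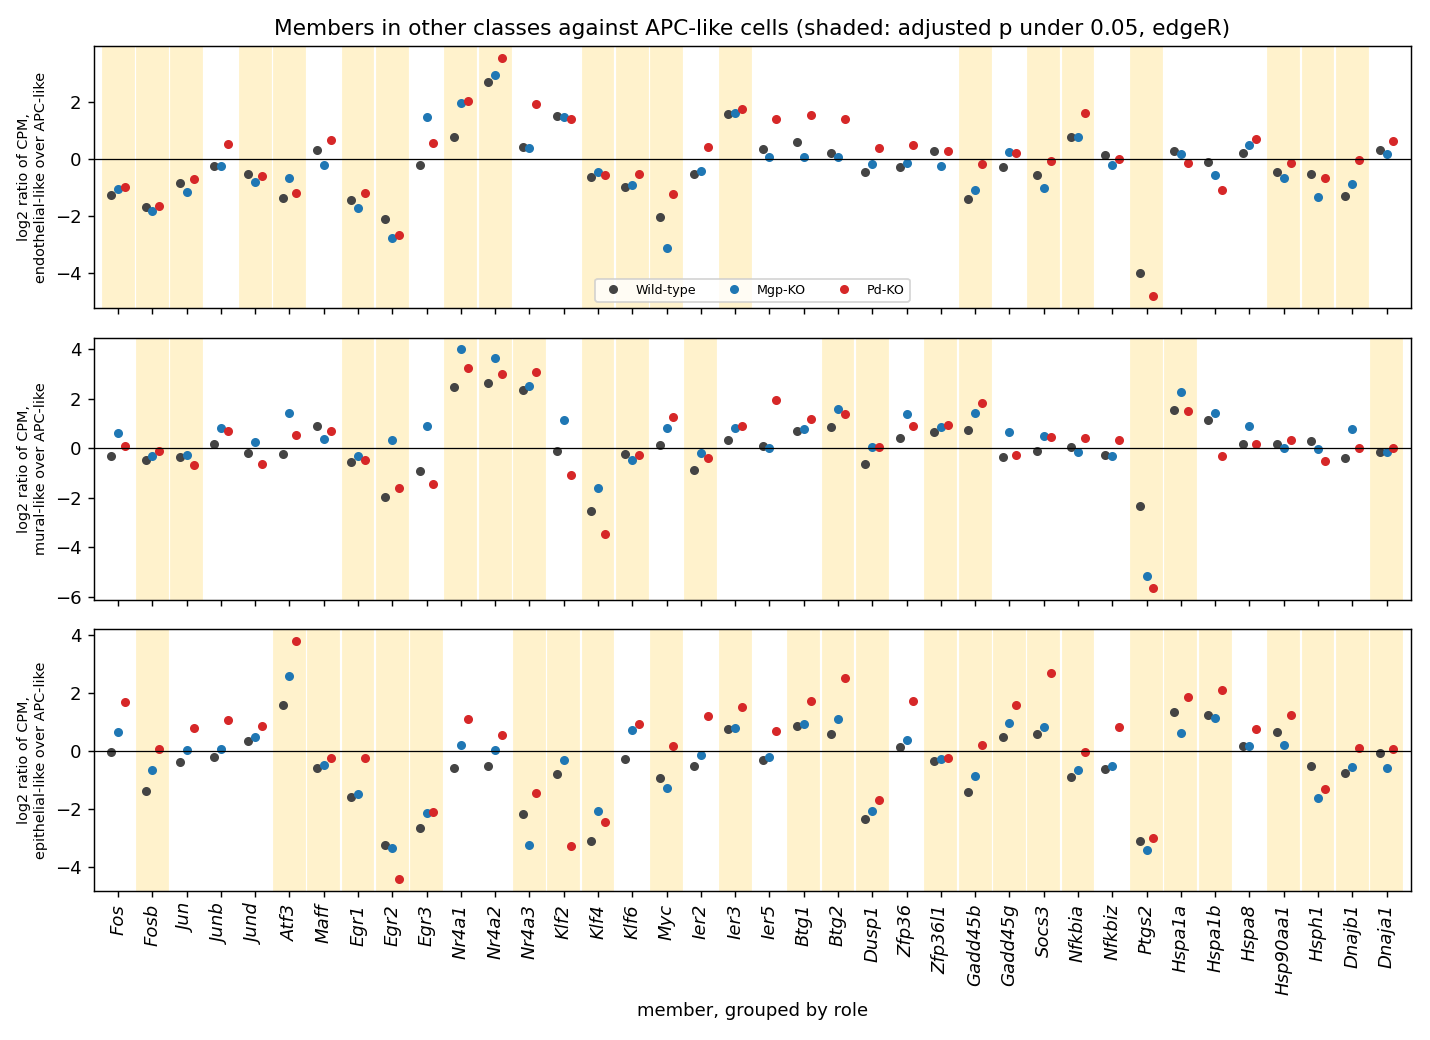
Log2 ratio of each member's CPM in endothelial-like, mural-like and epithelial-like cells over APC-like cells of the same library, with 1 point per library. Shading marks members with an adjusted p under 0.05 by edgeR (20, 17 and 26 of 38), and a library with no UMI of a member has no point. The points of *Nr4a1*, *Nr4a2* and *Nr4a3* lie above 0 in mural-like cells and those of *Ptgs2* far below 0 in all 3 classes.

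Between genotypes, endothelial-like and mural-like cells had lower members in Pd-KO, as APC-like cells did. Whether *Mgp* RNA, which mural-like cells of Pd-KO kept, bears on the members was not tested. In endothelial-like cells 19 of 34 members with at least 100 UMIs were at least 2-fold lower (background 4.22%) and 0 higher (background 10.6%), with a median of -1.07. *Ier3* was at 603, 625 and 129 CPM and *Hspa1a* at 319.7, 204 and 19.0 CPM in these cells. In mural-like cells 27 of 36 were lower (background 5.46%) and 0 higher (background 12.4%), with a median of -1.42. *Hspa1b* was at 381, 154 and 13.9 CPM, a ratio of -4.98 (-5.64 to -4.44). *Nr4a2* was not lower in Pd-KO in either class: it was at 21.3, 41.3 and 34.7 CPM in endothelial-like cells, a ratio of 0.53 (0.14 to 0.92), and at -0.03 (-0.57 to 0.47) in mural-like cells.

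For *Mgp*-KO over wild-type, endothelial-like cells had 1 member at least 2-fold lower (*Hspa1b*, background 5.01%) and 4 higher (*Atf3*, *Maff*, *Egr3* and *Nr4a1*, background 6.51%). Mural-like cells had 1 lower (*Hspa1b*, background 4.37%) and 12 of 36 higher (background 7.57%). The sum of *Hspa1a* and *Hspa1b* was at 483, 243 and 27.2 CPM in endothelial-like cells of wild-type, *Mgp*-KO and Pd-KO. In mural-like cells this sum was at 1139, 1027 and 73.4 CPM, and *Hspa1a* alone at 758, 872 and 59.5 CPM. Among the 12, *Atf3* was at 244, 1095 and 80.7 CPM, *Klf2* at 225, 813 and 95.7 CPM and *Nr4a1* at 191, 589 and 119.6 CPM. Only 175 mural-like cells came from *Mgp*-KO, their median depth was 3124 UMIs against 6662 in wild-type, and with a minimum of 5000 UMIs per cell 1 member was at least 2-fold higher and the median turned from 0.67 to -0.12.

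In epithelial-like cells a smaller part of the members lay past 2-fold in Pd-KO. 11 of 33 members tested were at least 2-fold lower (background 4.95%), namely 5 chaperones (*Hspa1a*, *Hspa1b*, *Hsp90aa1*, *Hsph1* and *Dnajb1*), *Klf2*, *Ier3*, *Ier5*, *Dusp1*, *Gadd45b* and *Nfkbia*, and 1, *Nfkbiz*, higher (background 15.1%), with a median of -0.58. *Fos* was at 1748, 4077 and 2413 CPM and *Atf3* at 879, 2444 and 770.3 CPM, with ratios of 0.18 (0.12 to 0.24) and -0.48 (-0.58 to -0.38). *Hspa1a* was at 664, 283 and 77.5 CPM, a ratio of -3.38 (-3.71 to -3.09), and *Klf2* at 140.5, 302 and 20.9 CPM, a ratio of -3.01 (-3.69 to -2.46). In *Mgp*-KO 6 members were at least 2-fold higher (*Fos*, *Atf3*, *Maff*, *Klf4*, *Klf6* and *Nfkbiz*, background 11.1%) and 2, *Hspa1a* and *Hspa1b*, at least 2-fold lower (background 2.21%). The Pd-KO values rest on 106 cells.

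Smaller classes held too few cells for a comparison of genotypes. Schwann-like cells summed to 12470.1, 14915 and 8656 CPM of members in 107, 13 and 43 cells, early adipocyte-like cells to 17468, 24858 and 9591 CPM in 225, 40 and 34 cells, and myoepithelial-like cells to 10525, 16461 and 4889 CPM in 30, 118 and 19 cells. The order *Mgp*-KO, wild-type, Pd-KO was the same in each. Neuron-like cells came from the wild-type library alone (90 cells), with 4216 CPM of immediate early members against 5174 CPM of chaperones.

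Further genes of the same pathways were counted against the shares of all genes in APC-like cells given above (8.25% lower and 18.3% higher in Pd-KO, 4.34% lower and 16.6% higher in *Mgp*-KO). Of 37 other immediate early and early response genes tested in APC-like cells, 21 were at least 2-fold lower in Pd-KO and 0 higher (median -1.31). They were led by *Dusp2*, a phosphatase (2.61, 1.58 and 0.261 CPM in wild-type, *Mgp*-KO and Pd-KO), *Arc* (18.7, 9.99 and 2.06 CPM), the chemokine gene *Cxcl1* (484, 540.5 and 76.3 CPM) and the chemokine gene *Ccl2* (239, 414 and 43.6 CPM). In *Mgp*-KO 1 (*Arc*) was lower and 5 higher, against 4.34% and 16.6% of all genes. The share of the list that was higher was near that of all genes. The 5 were led by *Ifrd1* (111, 463 and 90.2 CPM), *Nfil3* (21.4, 63.1 and 21.1 CPM), *Fosl1* (1.32, 3.54 and 0.261 CPM) and *Il6* (16.3, 43.1 and 12.1 CPM).

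Of 29 other heat shock and chaperone genes, 10 were at least 2-fold lower in Pd-KO, against 8.25% of all genes, and 0 higher, against 18.3% (median -0.88). The 10 were led by the metallothioneins *Mt2* (236, 210.3 and 47.9 CPM) and *Mt1* (1122, 1222 and 256 CPM), the small heat shock protein gene *Hspb1* (82.6, 89.0 and 19.9 CPM) and the ubiquitin gene *Ubb* (2708, 2181 and 771 CPM). In *Mgp*-KO 0 were lower and 0 higher. The 13 factors that act upstream, among them *Hsf1*, *Srf*, *Elk1*, *Creb1* and the MAP kinases, had a median of 0.19 in Pd-KO and 0.06 in *Mgp*-KO. The one past 2-fold was *Nfkb1*, at 45.4, 241 and 106 CPM. Gene span, which is taken up next, was not taken off in these lists.

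Several measures moved with the libraries beside the members. Genes of short genomic span were lower in both knockouts relative to wild-type: genes up to 10 kb, which include 28 of 38 members, had a median of -0.30 in *Mgp*-KO and -0.45 in Pd-KO, and 16.7% of them were at least 2-fold lower in Pd-KO, whereas genes over 50 kb had medians of 0.70 and 0.82. Genes of 10 to 50 kb had medians of -0.06 and -0.08. The shares at least 2-fold higher in *Mgp*-KO and Pd-KO were 5.28% and 5.81% up to 10 kb and 9.77% and 10.3% from 10 to 50 kb. Over 50 kb they were 38.5% and 43.2%. The file headers name Cell Ranger 4 for wild-type and 7.1.0 for both knockouts, so a difference in counting cannot be told apart from one between genotypes. With the running median of genes of like span taken off, 23 of 38 members were at least 2-fold lower in Pd-KO, against 8.1% of all genes under the same correction (median -1.09), and the *Mgp*-KO median was 0.32.

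At a matched depth and a matched mitochondrial share the order of the libraries was that of all APC-like cells. In APC-like cells of 5000 to 10000 UMIs the members summed to 17362, 21821 and 8219 CPM in wild-type, *Mgp*-KO and Pd-KO, and in cells with 1 to 2% mitochondrial UMIs to 16539, 21211 and 7176. With the cells cut into 4 equal groups by mitochondrial share, from the lowest to the highest group, the sum ran from 16611 to 20404 CPM in wild-type and from 6828 to 8462 in Pd-KO, but from 21780.4 to 20307 in *Mgp*-KO. Markers of other cells in APC-like sums also differed: the 8 mural markers summed to 164, 65.6 and 53.5 CPM, the 5 early adipocyte markers to 191, 53.5 and 42.5, the 8 endothelial markers to 37.6, 18.8 and 24.9, and the 7 leukocyte markers to 3.35, 1.43 and 2.44. None of the mural, early adipocyte, endothelial or leukocyte markers was at 0. Each of these lists was highest in wild-type, whereas the 5 Schwann markers were highest in Pd-KO (17.9, 18.3 and 28.2 CPM) and the 5 neuron markers in *Mgp*-KO (2.91, 3.43 and 2.12 CPM), and the part of all these lists in the members' differences was not tested.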

How the data were processed

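UMIs were counted per gene and barcode in inguinal SVF cells (10x 3′ chemistry), 1 library per genotype. The authors deposited these counts as unnormalized matrices of all barcodes. The submitters' processing notes name Cell Ranger 6.1.1 and GRCm39, while the file headers name Cell Ranger 4 for wild-type and 7.1.0 for both knockouts. The study's methods name version 6.1.1 with its defaults and mm10. Counting of introns is the default of 7.1.0 and not of 6.1.1, so which applied to the knockouts was not settled here. Gene spans and promoters came from RefSeq (GRCm38.p6).

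Barcodes with at least 2000 UMIs and at most 10% mitochondrial UMIs were kept, and no doublet caller was run. Classes were gated on marker genes, with thresholds set after the data were seen. A stricter gate allowed at most 1 UMI on markers of other non-APC classes. It kept 1046 of 7427, 8565 of 11066 and 4415 of 6862 APC-like cells of wild-type, *Mgp*-KO and Pd-KO. Of mural-like cells it kept 159 of 945, 89 of 175 and 181 of 404, so it cut the libraries unevenly. Members, lists and markers were chosen with earlier results of these data known. UMIs were summed per library and class, and given as CPM of all UMIs. Ratios (0.5 UMIs added) had the median of all genes that reached 100 UMIs taken off and carry exact binomial 95% intervals, which cover counting error only. A ratio past 2-fold was counted, and no test was made between genotypes. Classes were compared in 12 sums of 4 classes by edgeR 4.0.16 (R 4.3.3; quasi-likelihood test, library as a block, TMM, filterByExpr, adjusted p under 0.05), tested on simulated data, with DESeq2 1.42.0 as the alternative. The 3 libraries are the replicates of this test. APC subsets were compared within each library without a test.

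Values per library are printed for every member with at least 50 CPM in a library or past 2-fold in APC-like cells. Between classes up to 5 members called in each direction are named by size (*Klf2* was added after its values were seen), and up to 4 genes of each further list. *Ddit3*, whose symbol names several rows, was left out. The correction for gene span and the CRE core search were chosen after seeing the data.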

Additional observations from a re-analysis of the deposited data

Results flagged for a closer look

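In 22 cases a member had a ratio on one side of 0 in APC-like cells and on the other side in endothelial-like, mural-like or epithelial-like cells, with both 95% counting intervals clear of 0. Given here are the 5 of these in which a ratio was also past 2-fold. The difference between the classes was not tested across libraries.

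For *Mgp*-KO over wild-type, *Egr3* had a log2 ratio of 1.18 in endothelial-like cells and -0.56 in APC-like cells. *Egr2* had 1.88 in mural-like cells, from 13.2, 53.0 and 6.12 CPM in wild-type, *Mgp*-KO and Pd-KO, against -0.46 in APC-like cells. *Klf4* had 1.01 in epithelial-like cells against -0.03, an APC value near 0 whose sign changed under other ways of processing.

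For Pd-KO over wild-type, *Fos* had 0.18 in epithelial-like cells against -1.48 in APC-like cells, and *Nfkbiz* had 1.15 against -0.23.

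Barcodes of at least 500 but under 2000 UMIs entered no comparison. They held the members at 22519.7 CPM in *Mgp*-KO, against 11783 in wild-type and 8058 in Pd-KO. Their numbers were very unequal, at 24365 in wild-type, 647 in *Mgp*-KO and 550 in Pd-KO, so pools of unlike size are compared. In barcodes over 10% mitochondrial UMIs the members were at 21063, 13648 and 7458 CPM in wild-type, *Mgp*-KO and Pd-KO, but these rest on 426, 4 and 187 barcodes.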

How the results depend on the processing

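No member past 2-fold in APC-like cells, and no member called between classes, changed sign under an alternative. Ratios over wild-type in the other classes are given here by counts and medians only. Medians of *Mgp*-KO, none of them past 2-fold, changed sign as given here. In APC-like cells 35 of 38 members kept the sign of their Pd-KO ratio under every alternative (the exceptions were *Nfkbiz*, *Nr4a2* and *Zfp36l1*) and 18 of the 30 at least 2-fold lower stayed so, and in *Mgp*-KO 24 kept their sign and *Hspa1b* and *Maff* stayed past 2-fold. The count of members lower in Pd-KO ran from 22 to 31 with each alternative applied alone, and alternatives were not combined. With equal weight of the APC subsets the Pd-KO median was -1.06 and with gene span taken off -1.09, against -1.55. Free RNA was subtracted, here and below, at an assumed share of 10%, which was not measured. With it subtracted 1 member was at least 2-fold higher.

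The *Mgp*-KO median in APC-like cells was -0.13 with no filter and 0.32 with gene span taken off. Members at least 2-fold higher numbered 5 with free RNA subtracted and 2 with a minimum of 5000 UMIs, up to 5% mitochondrial UMIs, the stricter gate or equal weight of the subsets.

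In endothelial-like cells, members higher in *Mgp*-KO numbered 2 with cells weighted equally or a minimum of 5000 UMIs, 7 with free RNA subtracted and 0 with the stricter gate, thinning or no filter. Members lower numbered 4 with the stricter gate or no filter and 2 with thinning, and the median with no filter was -0.14. For Pd-KO, gene span taken off gave 9 members lower and a median of -0.68, and free RNA subtracted or no filter gave 1 member higher.

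In mural-like cells a minimum of 5000 UMIs gave 2 members lower and 1 higher in *Mgp*-KO with a median of -0.12, and no filter gave 2, 6 and 0.34. The Pd-KO median was -1.79 at a minimum of 5000 UMIs, -1.51 up to 5% mitochondrial UMIs, -1.52 with no filter, -1.25 with thinning and -1.02 with gene span taken off. With free RNA subtracted 2 members were higher.

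By edgeR, leaving out 1 library each gave 4 to 7 members higher and 5 to 8 lower in mural-like cells, with the fewest lower without *Mgp*-KO or without wild-type. A minimum of 5000 UMIs gave 4 higher and the stricter gate 4 lower. DESeq2 and the other scaling left each count within 1.5 times. Without thinning, the shares of APC-like cells in wild-type, *Mgp*-KO and Pd-KO were 96.5%, 95.1% and 80.8% for *Fos*, 59.9%, 63.5% and 26.0% for *Atf3* and 65.7%, 38.6% and 14.3% for *Hspa1a*. The cause of these shifts was not tested. No paired analysis was possible because each genotype has 1 library and the groups share fewer than 2 replicate numbers. Depth limits the rare members most: the widest counting interval of a ratio in APC-like cells spanned 0.288 to each side on the log2 scale.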
